A study of Mus musculus with 2 samples.

Results

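Tcf7, Lef1 and Satb1 encode nuclear factors that mark T cell identity, and GATA3 binding was examined at their 3 loci in mouse CD4+ T cells. The members were chosen by position on the mm9 genome build: chromosome 11 from 52030000 to 52150000 for Tcf7, chromosome 3 from 130780000 to 130960000 for Lef1 and chromosome 17 from 51850000 to 52050000 for Satb1. The windows held 58 of the 66026 GATA3 sites found genome-wide, 17 at Tcf7, 18 at Lef1 and 23 at Satb1. A site is a stretch where reads of at least 1 of the libraries were enriched over their surroundings, and sites are numbered here along the chromosome within each window (Tcf7-1 to Tcf7-17).

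The study used chromatin immunoprecipitation with a GATA3 antibody and sequencing in CD4+ T cells of C57BL/6 mice, isolated as naive CD25-negative, CD62L-positive cells. Its question, as far as the labels tell, is where GATA3 binds with TGF-β1 and IL-4, set against a library whose treatment is not named. One library is labelled TGF-β and IL-4 and is called the IL-4 library here; its culture held TGF-β1 at 2 ng/ml, IL-4 at 10 ng/ml, and anti-CD3 and anti-CD28 antibodies at 1 µg/ml. The other, called the NA library after its label, has no treatment named, and the protocol shared by both leaves unclear whether its cells had TGF-β1 without IL-4 or no stimulation. Figure legends give them as TGF-β plus IL-4 and as no treatment named. There was 1 library per condition, with 22963959 reads in the NA library and 15561681 in the IL-4 library, so nothing that differs between them has been checked in a replicate. No input library was used here, no expression was measured in these files, so the labelled cell type was not checked against markers, and the labels do not say how many animals were pooled.

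TCF-1, the product of Tcf7, and LEF-1 are related HMG-box proteins that bind DNA and pair with β-catenin at the end of the Wnt pathway. TCF-1 is needed to commit thymic progenitors to the T lineage, stays high in naive and memory T cells, and is known to promote Gata3 expression early in T helper 2 differentiation. SATB1 is a chromatin organiser that binds AT-rich DNA, is needed for thymocyte development and has been linked to the folding of the T helper 2 cytokine locus. GATA3 is the zinc-finger factor that directs T helper 2 differentiation and recognises the core letters GATA.

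The promoter sequences at hand come from RefSeq on GRCm38.p6, another build than the reads, so no site could be laid on them. They are shown for the GATA letters that each gene's start regions hold. The table lists 2 starts for Tcf7, 4 for Lef1 and 5 for Satb1, each with 250 bases before and 50 after the start. The 6-letter GATA motifs AGATAA and TGATAA, searched on both strands, were present at 1 of these 11 starts, against 18.6% of 32851 promoters of the table. That start is the fourth one listed for Lef1. Its 250 upstream bases, on the plus strand at chr3:131156044-131156293, hold TGATAA, here in capitals, 195 bases before the start. The AGATAA motif of the other strand begins 17 bases after the start, at chr3:131156299-131156328 in the second line, where it reads TTATCT.
Lef1 start 4, upstream: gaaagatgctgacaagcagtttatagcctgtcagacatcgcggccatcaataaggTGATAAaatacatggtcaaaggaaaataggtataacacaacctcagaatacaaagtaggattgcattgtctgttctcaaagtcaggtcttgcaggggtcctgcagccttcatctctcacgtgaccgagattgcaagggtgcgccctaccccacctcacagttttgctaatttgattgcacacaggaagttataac
Lef1 start 4, downstream motif: aagaaaaggtgtTTATCTctattgaagctg

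The 4-letter core GATA alone, which is part of both longer motifs, occurs at 57.9% of all promoters of the table and at 5 of the 11 starts here. At the first start listed for Tcf7 it lies 63 bases upstream, shown in capitals on the minus strand at chr11:52283060-52283089, and at the first start listed for Satb1 it lies 168 bases upstream, on the minus strand at chr17:51833441-51833470. The other starts with the core were the third and the fourth of Lef1 and the fifth of Satb1. These matches describe letters only, and whether the bases before a listed start are coding sequence of a longer transcript was not checked.
Tcf7 start 1: gaggaacaggacGATAagaatcgcgacagc
Satb1 start 1: ccaagagaagagGATAgcaagaagagccca

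The tallest GATA3 sites of the 3 loci stood at Tcf7 and Lef1, while most reads of each window lay outside sites. Reads were counted in bins of 200 bp by their fragment centre, 63 bp inwards from the 5′ end, and are given as RPM, reads per 1000000 reads of the library. The mean bin held 0.225 RPM in the NA library and 0.271 RPM in the IL-4 library at Tcf7, 0.204 and 0.231 RPM at Lef1, and 0.144 and 0.190 RPM at Satb1. An even spread over the covered genome would give 0.0844 RPM per bin. The 5 strongest sites of a window held 75.2% of all reads in sites at Tcf7 in the NA library and 78.5% in the IL-4 library. At Lef1 the shares were 71.8% and 74.3%, and at Satb1 47.2% and 64.5%. Sites were close together: per Mb there were 141.7 at Tcf7, 100 at Lef1 and 115 at Satb1, against 27.9 per covered Mb of the genome. The windows were chosen round genes of T cells, so a higher density than the genome's is a description of the choice.

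**Figure D1:**
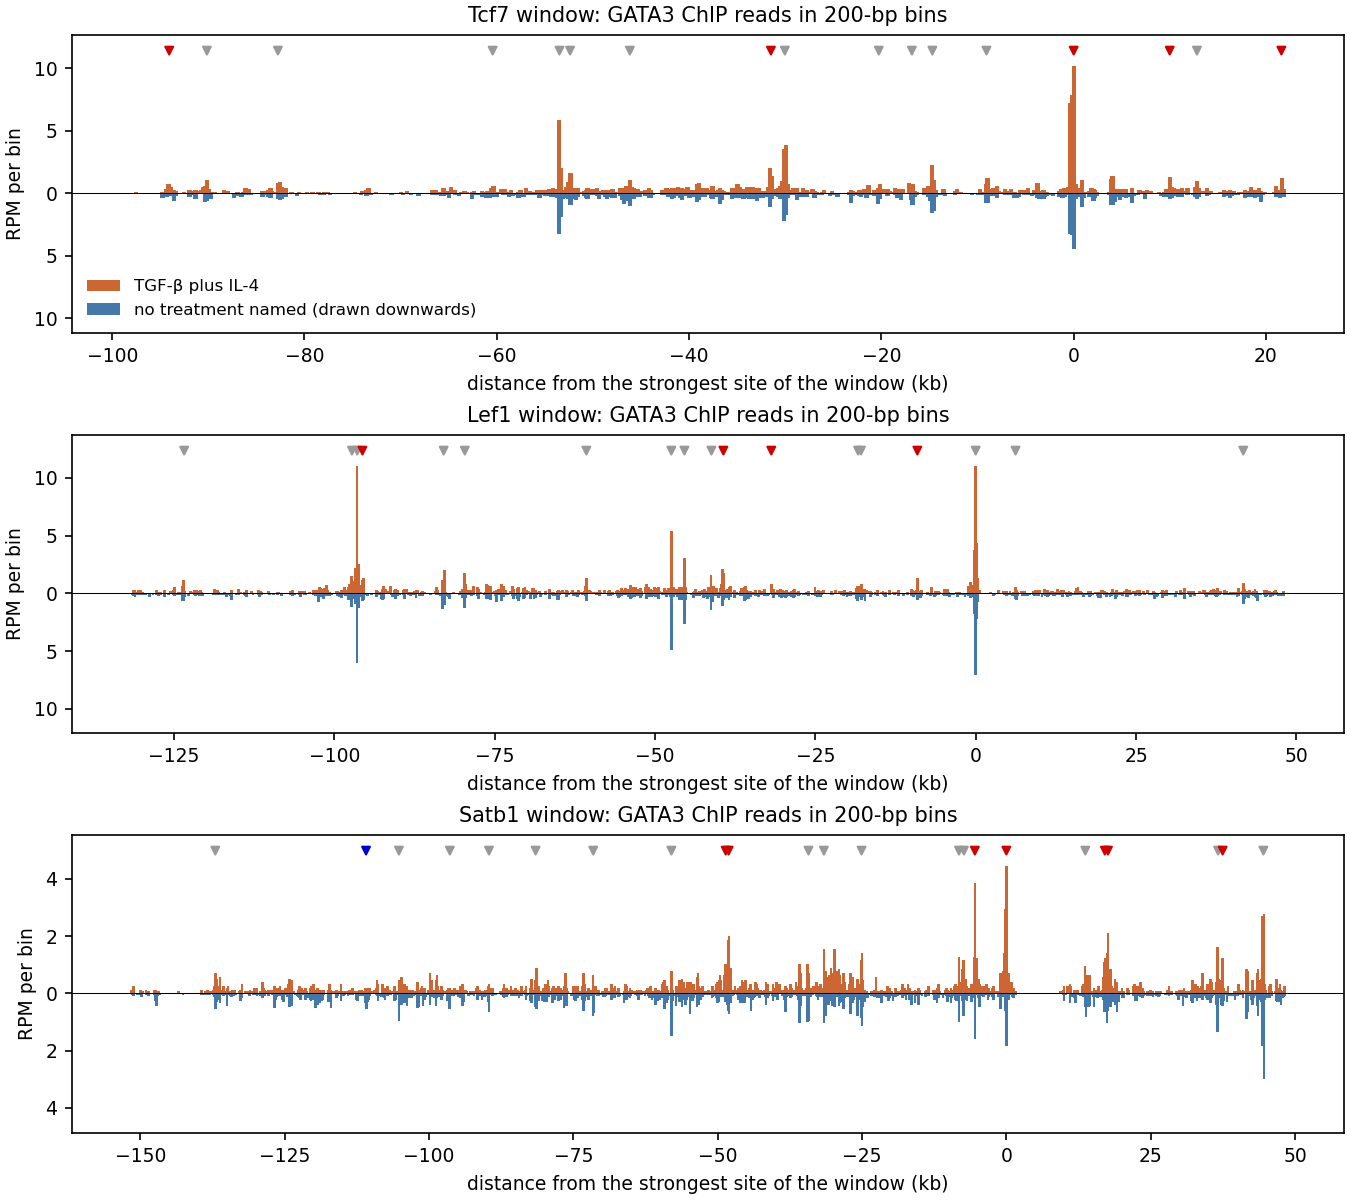
Reads per 200-bp bin in RPM along the Tcf7, Lef1 and Satb1 windows, by distance in kb from each window's strongest site, with the IL-4 library drawn upwards and the NA library drawn downwards. Triangles mark the 17, 18 and 23 sites, red where RPM was higher in the IL-4 library by the size rule, blue where lower and grey otherwise; the tallest bin of the IL-4 library is 10.2 RPM at Tcf7, 10.99 RPM at Lef1 and 4.43 RPM at Satb1.

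Of the 58 sites, 25 were called in both libraries, 22 in the IL-4 library alone and 11 in the NA library alone. For calling, the NA library was thinned to the depth of the IL-4 library and had 36525 peaks genome-wide, against 55749. With all its reads it had 55771, so the balance of peaks depends on the depth used for calling. The split of the 58 sites without thinning is not given here. A site was counted as higher in the IL-4 library when its RPM ratio was at least 2 and the exact 95% interval of the ratio, from the split of its reads, lay above 1, and as lower at a ratio of at most 0.5 with an interval under 1. By this size rule 16 sites (27.6%) were higher, against 25.3% of all union sites of the genome, and 1 (1.72%) was lower, against 3.67%. The share of higher sites was thus close to that of the genome. The median ratio of the 58 sites was 1.55, against 1.60 over all union sites, and 46 of the 58 had a ratio over 1. Of the 25 sites called in both libraries, 6 were higher and 0 lower, against 12.9% and 1.31% of such sites genome-wide. Sites called in 1 library alone were picked partly by the difference itself, which favours a ratio away from 1, and the intervals cover counting error only and do not allow for that choice.

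With another scaling the count changed. Setting the median ratio of all sites shared genome-wide to 1, which lowers every log2 ratio by 0.42, left 6 of the 58 sites higher, against 11.6% of all union sites, and 7 lower, against 8.37%. Of these, 5 of the higher and 6 of the lower sites lay at Satb1. Of those 6 all but 1 were called in the NA library alone, and some of those 5 in the IL-4 library alone. Such calls favour a ratio away from 1. That sites of this window stood on both sides of the genome's typical ratio was therefore partly set by how sites were picked. At Tcf7 0 were higher and 1 was lower with that scaling, and at Lef1 1 was higher and 0 were lower.

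**Figure D2:**
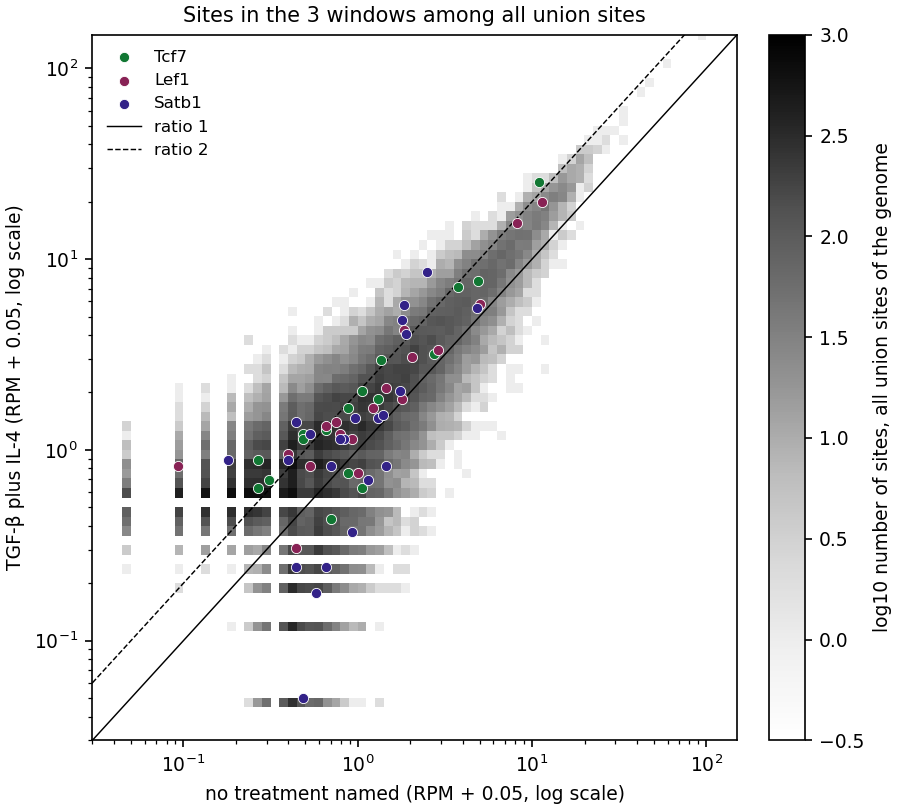
RPM of each site in the NA library (x axis) and in the IL-4 library (y axis), both with 0.05 added and on log scales, for the sites at Tcf7, Lef1 and Satb1 (coloured points) over the density of all 66026 union sites (grey). The strongest points are Tcf7-14, at 25.3 RPM, and Lef1-16, at 19.9 RPM in the IL-4 library, near the upper end of all sites, and the highest Satb1 point, Satb1-17, is at 8.55 RPM.

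Tcf7, the gene of TCF-1, had the site with the highest mean RPM over both libraries among the 3 loci, which in the NA library was second to Lef1-16. Tcf7-14, on chromosome 11 from 52127591 to 52128190, held 251 reads (10.9 RPM) in the NA library and 394 reads (25.3 RPM) in the IL-4 library. It ranked 206 among the 66026 union sites by mean RPM, which sums reads over the width of a site, 600 bp here. By the most fragments over any position it had 95 in the NA library, below Lef1-16 (146), Lef1-3 (116) and Lef1-8 (98). In the IL-4 library Tcf7-14 and Lef1-16 had 150 each. The enrichment of Tcf7-14 over the surroundings was 24.1-fold in the NA library and 59.1-fold in the IL-4 library, below the 76.7-fold and 103.5-fold of Lef1-16. The surroundings of Lef1-16 held fewer fragments, on average 1.90 (NA) and 1.45 (IL-4) per position, against 3.945 and 2.54 at Tcf7-14. They include a stretch of 1600 bp in which neither library had a read in any bin, against 1000 bp near Tcf7-14. The ratio of Tcf7-14 was 2.32 (95% interval 1.97 to 2.73), past the size rule, and 1.73 (1.48 to 2.04) with scaling to the median of shared sites, which is under the rule. The site had a second maximum 350 bp before its summit in both libraries. In the NA library 93 fragments covered the summit, 58 the second maximum and 33 the lowest point between them. In the IL-4 library the numbers were 150, 94 and 57, so both maxima were taller there, also in RPM (9.64 and 6.04 against 4.05 and 2.53), and both libraries had the shape with a pair of maxima.

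The other strong sites of the Tcf7 window had ratios from 1.17 to 2.21. Tcf7-5, from 52074401 to 52074710, held 111 reads (4.83 RPM) in the NA library and 118 (7.58 RPM) in the IL-4 library, a ratio of 1.57 (1.20 to 2.05). Tcf7-9, from 52097891 to 52098150, held 85 reads (3.70 RPM) and 110 (7.07 RPM), a ratio of 1.91 (1.43 to 2.56). Both were higher in RPM in the IL-4 library with an interval above 1 but short of the size rule. Tcf7-12, from 52113231 to 52113530, held 62 reads (2.70 RPM) and 49 (3.15 RPM), a ratio of 1.17 (0.785 to 1.72), which counting error does not separate from 1. Tcf7-8, from 52096491 to 52096680 and 1450 bp from Tcf7-9 by summit, held 30 reads (1.31 RPM) and 45 (2.89 RPM), a ratio of 2.21 (1.36 to 3.64), past the size rule. With fragment centres taken 100 bp inwards that ratio was 1.86.

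The strong sites were also set against each other. The odds of a read coming from the IL-4 library were 1.98 times as high at Tcf7-14 as at Tcf7-12 (95% interval 1.30 to 3.05), a comparison that needs no scaling of the libraries. These sites were picked as the highest and lowest ratio among the 5 strongest, which widens the gap. Of the weaker sites, 9 were called in the IL-4 library alone and held 5 to 23 reads in the NA library and 9 to 31 in the IL-4 library. Tcf7-1, from 52033871 to 52034060, was the one of them with the interval farthest from 1, with 5 reads (0.218 RPM) against 13 (0.835 RPM) and a ratio of 3.84 (1.28 to 13.8). Tcf7-3 held 19 and 25 reads and Tcf7-6 held 23 and 31, with ratios of 1.94 (1.03 to 3.73) and 1.99 (1.12 to 3.57), just outside the size rule. The sites just inside it were Lef1-15, at 2.11 (1.01 to 4.51), and Satb1-20, at 2.18 (1.45 to 3.30). The sites Tcf7-10 and Tcf7-11, named after their values were seen, were called in the NA library alone, with ratios of 0.590 and 0.577 and intervals that reached over 1.

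Lef1, the gene of the second HMG-box factor, had a pair of tall sites far apart, and the ratio of each was under 2. Lef1-16, on chromosome 3 from 130911391 to 130912070, held 261 reads (11.4 RPM) in the NA library and 309 (19.9 RPM) in the IL-4 library, a ratio of 1.75 (1.48 to 2.07). Lef1-3, from 130814991 to 130815520, held 188 reads (8.19 RPM) and 240 (15.4 RPM), a ratio of 1.88 (1.55 to 2.29). They ranked 355 and 786 among all union sites and lay 96.4 kb apart by summit. Both were higher in RPM in the IL-4 library, short of the size rule, and at each the summit lay at the same 10-bp position in both libraries. With scaling to the median of shared sites the ratios were 1.31 (1.10 to 1.55) and 1.41 (1.16 to 1.71). Reads of top mapping quality made up 84.3% (NA) and 84.8% (IL-4) of those at Lef1-16 and 87.8% and 88.3% of all reads. The medians over the 58 sites were higher, at 96.3% and 96.7%.

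Of the sites between them, 3 had a ratio near 1. Lef1-8, from 130864191 to 130864430, held 115 reads (5.01 RPM) and 90 (5.78 RPM), a ratio of 1.16 (0.867 to 1.53). Lef1-9, 2040 bp further on from 130866251 to 130866460, held 65 reads (2.83 RPM) and 51 (3.28 RPM), a ratio of 1.16 (0.786 to 1.70). Lef1-10, from 130870481 to 130870650, called in the NA library alone, held 40 reads (1.74 RPM) and 28 (1.80 RPM), a ratio of 1.03 (0.614 to 1.72). Counting error does not separate these 3 ratios from 1, and their intervals leave room for changes of up to 1.53-fold, 1.70-fold and 1.72-fold. The next site, Lef1-11, had a higher ratio. From 130872161 to 130872530 it held 41 reads (1.79 RPM) in the NA library and 65 (4.18 RPM) in the IL-4 library, where alone it was called, a ratio of 2.34 (1.56 to 3.55).

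The remaining Lef1 sites past the size rule were small. Lef1-12, from 130879861 to 130879970, held 1 read in the NA library and 12 in the IL-4 library, and its ratio, 17.7, had a 95% interval from 2.62 to 757. Lef1-15, from 130902581 to 130902760, held 14 and 20 reads. Lef1-4, named after its values were seen, held 8 and 14 reads, a ratio of 2.58 (1.01 to 7.11). Lef1-1, at the start of the window and called in the IL-4 library alone, held 27 reads and 25, a ratio of 1.37 (0.761 to 2.45). At Lef1 0 of 9 sites called in both libraries were higher, with ratios from 0.738 to 1.94, against 12.9% of such sites genome-wide. Of all 18 sites 4 were higher, against 25.3% of union sites, and these were called in the IL-4 library alone.

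**Figure D3:**
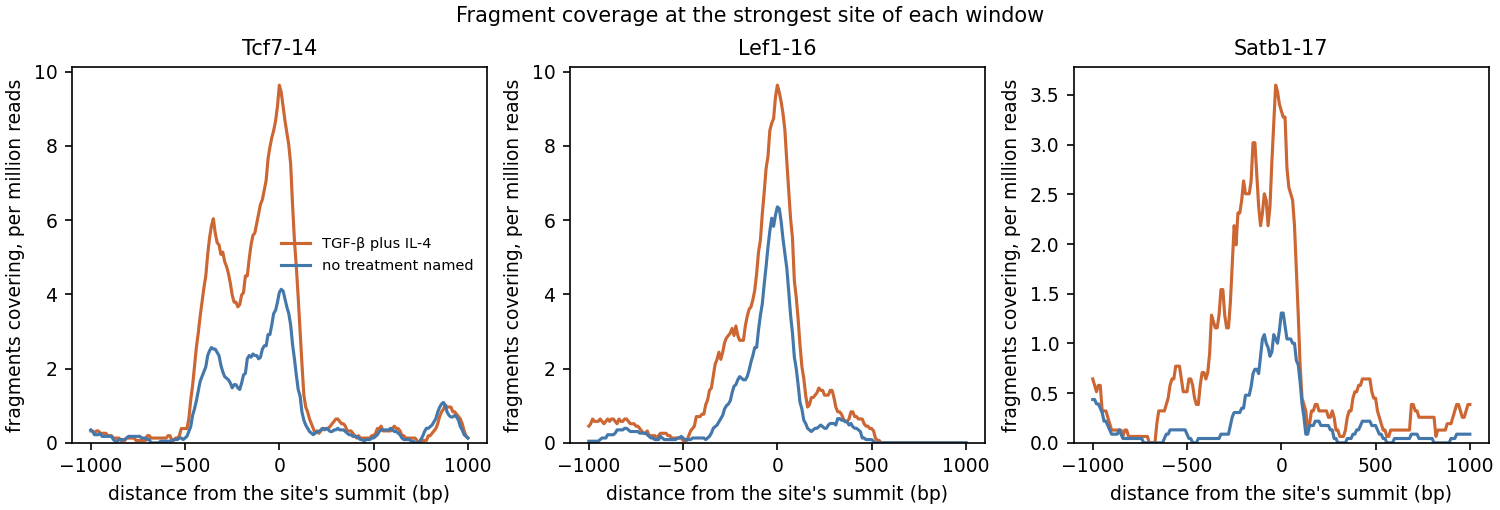
Number of fragments covering each position, per 1000000 reads of the library, by distance in bp from the summit of the strongest site of each window, in the IL-4 library (orange) and in the NA library (blue). Tcf7-14 has a second maximum 350 bp before the summit in both libraries, Lef1-16 has 1 main summit in both, and Satb1-17 is broad and lower, with y axes that differ between the panels.

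Satb1, the gene of the chromatin organiser, had no site among the top 1% of the genome. Its site with the most reads was not the same one in both libraries. In the NA library the most reads stood at Satb1-23, near the end of the window on chromosome 17, from 52045991 to 52046340, with 110 reads (4.79 RPM), against 85 (5.46 RPM) in the IL-4 library, a ratio of 1.14 (0.849 to 1.53). In the IL-4 library the most stood at Satb1-17, from 52001321 to 52001810, with 133 reads (8.55 RPM), against 56 (2.44 RPM) in the NA library, a ratio of 3.51 (2.55 to 4.88). These counts were summed over the width of the site, 350 bp at Satb1-23 and 490 bp at Satb1-17. By the most fragments over any position Satb1-23 was the tallest site of the window in both libraries. It had 84 in the NA library and 65 in the IL-4 library, against 30 and 56 at Satb1-17. The odds of a read coming from the IL-4 library were 3.06 times as high at Satb1-17 as at Satb1-23 (1.97 to 4.79). Satb1-17 and Satb1-23 were picked as the extremes among the 5 strongest sites of the window, which widens the gap.

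At Satb1-17 the share of top-quality reads was 69.6% in the NA library and 60.9% in the IL-4 library, below the 87.8% and 88.3% of the libraries. The medians over the 58 sites were 96.3% and 96.7%. With top-quality reads alone the ratio of Satb1-17 was 3.05. The site also lies near a stretch of 7600 bp, from 52003401 to 52011000, in which neither library had a read in any bin, the longest such stretch of the 3 windows. The part of these features in the ratio was not tested beyond the value with top-quality reads.

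Satb1-16, Satb1-10 and Satb1-20 were also past the size rule, and like Satb1-17 they were called in both libraries. Satb1-16, 5450 bp before Satb1-17 and from 51996131 to 51996490, held 41 reads (1.79 RPM) in the NA library and 89 (5.72 RPM) in the IL-4 library, a ratio of 3.20 (2.19 to 4.76). Satb1-10, from 51953351 to 51953890, held 40 reads (1.74 RPM) and 74 (4.76 RPM), a ratio of 2.73 (1.83 to 4.12). Satb1-20, from 52018941 to 52019410, held 42 reads (1.83 RPM) and 62 (3.98 RPM), a ratio of 2.18 (1.45 to 3.30). Satb1-10, Satb1-16 and Satb1-17 stayed past the size rule under the 6 alternatives of counting and scaling that give an interval of their own, with scaling to the median of shared sites giving 2.04, 2.40 and 2.62. Of all 16 higher sites, 2 others did so: Lef1-12, described above, and Satb1-22, named after its values were seen, with 9 and 21 reads. The Satb1 site with the highest ratio, Satb1-9, also named after its values were seen, held 3 and 13 reads, a ratio of 6.40 (1.76 to 35.0), and did not pass when counted in 400 bp round its summit.

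Other Satb1 sites had lower RPM in the IL-4 library. Satb1-2, from 51890791 to 51890890, was the 1 site past the size rule in that direction, with 10 reads in the NA library and 0 in the IL-4 library. The upper limit of its ratio was 0.658. Taking 3 reads as the floor for the count of 0, and the 10 reads as free of error, its RPM was at least 2.26-fold lower, while the interval, which counts the error of both, leaves room for a smaller fall. Counted in 400 bp round its summit, where the IL-4 library did hold reads, the ratio was 0.211 (0.0403 to 0.706). Satb1-8, from 51943601 to 51943790, held 32 reads (1.39 RPM) and 12 (0.771 RPM), a ratio of 0.553 (0.260 to 1.10). Over the 6 sites called in the NA library alone the ratios ran from 0 to 0.553, with 9 to 32 NA reads and 0 to 12 IL-4 reads per site. These sites were weak, and the 5 of them other than Satb1-2 had intervals that reached over 1. Satb1-12, called in the IL-4 library alone, held 21 and 22 reads, a ratio of 1.55 (0.811 to 2.96).

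**Figure D4:**
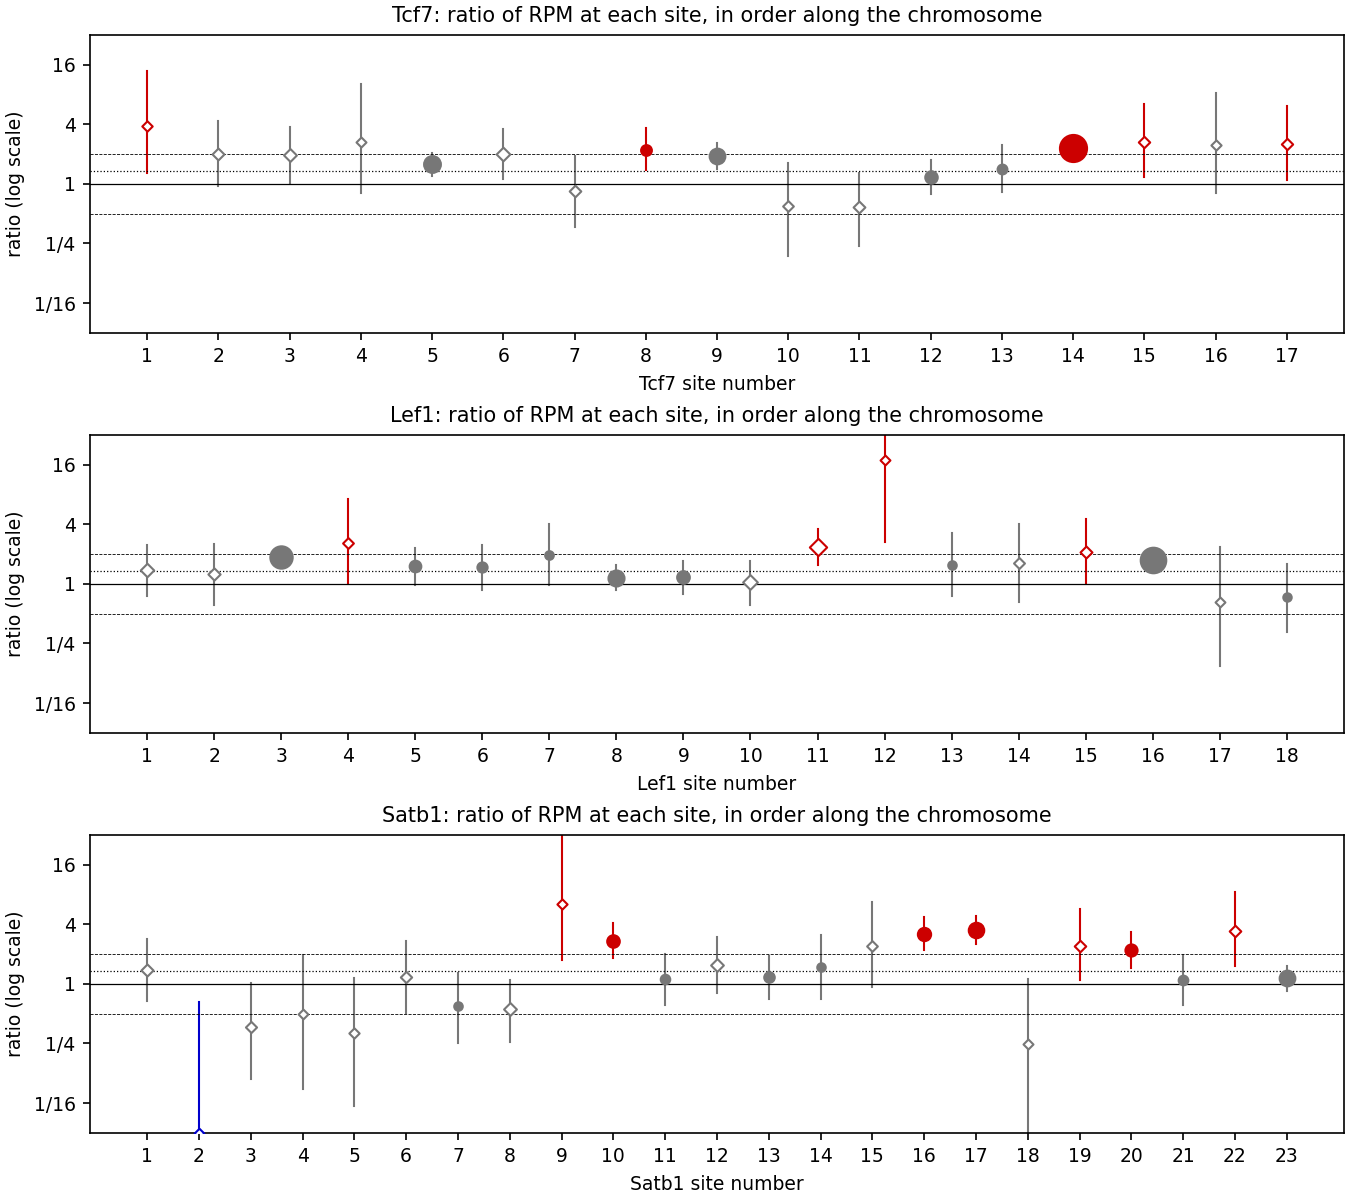
RPM ratio of the libraries (IL-4 library over NA library, log scale) at each site in order along the chromosome, with exact 95% intervals, for Tcf7, Lef1 and Satb1. Circles are sites called in both libraries and diamonds sites called in 1, larger for more reads, red where higher and blue where lower by the size rule; the dashed lines are ratios of 2 and 0.5, the dotted line is the genome's median of shared sites, 1.34, and values beyond the axis are drawn at its edge, as for Satb1-2 with 0 reads in 1 library.

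The 7 higher Satb1 sites all lay in the right part of the window, and 6 of its 7 sites with a ratio under 1 in the left. Split at the midpoint, its left part, from 51850001 to 51950000, had these counts: 0 of 8 sites were higher and 1 was lower, 6 of the 8 had a ratio under 1, and the median ratio was 0.523. Over all union sites 25.3% were higher and 3.67% lower, 75.4% had a ratio over 1, and the median was 1.60. In its right part, from 51950001 to 52050000, 7 of 15 sites were higher and 0 lower, 14 of the 15 had a ratio over 1, and the median ratio was 2.18. With scaling to the median of shared sites 5 of 8 sites of the left part were lower and 0 higher, and in the right part 5 of 15 were higher and 1 lower, against 11.6% higher and 8.37% lower over all union sites. Over all reads the odds of a read coming from the IL-4 library were 1.43 times as high in the right part as in the left (95% interval 1.28 to 1.58). The same comparison gave 1.17 (1.05 to 1.30) at Tcf7 and 0.885 (0.807 to 0.971) at Lef1. The split at the midpoint was chosen after the pattern had been seen, and other divisions were not tried. Most sites of the left part were weak, and 5 of its 8 were called in the NA library alone, which favours a ratio under 1. Some sites of the right part were called in the IL-4 library alone, which favours a ratio over 1. The site counts and median ratios of the 2 parts were thus partly set by how sites were picked.

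Reads between the sites also differed at Satb1 while over all of Tcf7 and of Lef1 they had a ratio near 1. Over the whole windows, sites included, the NA library held 3101 reads at Tcf7 (135.0 RPM), 4218 at Lef1 (183.7 RPM) and 3302 at Satb1 (143.8 RPM). In the IL-4 library the windows held 2532 (162.7 RPM), 3238 (208.1 RPM) and 2959 (190.1 RPM). The ratios were 1.21 (1.14 to 1.27), 1.13 (1.08 to 1.19) and 1.32 (1.26 to 1.39). Scaling to the median of shared sites multiplies every ratio by 0.748 and turned these to 0.901, 0.847 and 0.989, while odds between regions do not depend on it. Outside sites they were 1.00 (0.941 to 1.07) at Tcf7, 0.998 (0.945 to 1.05) at Lef1 and 1.25 (1.18 to 1.32) at Satb1. The odds of an outside read coming from the IL-4 library were 1.24 times as high at Satb1 as at Tcf7 (1.14 to 1.35) and 1.25 times as high as at Lef1 (1.16 to 1.35). In sites alone the ratios were 1.88 (1.70 to 2.07), 1.61 (1.47 to 1.76) and 1.66 (1.48 to 1.85). The sites held 23.1% of the window's reads in the NA library and 36.0% in the IL-4 library at Tcf7, 22.1% and 31.4% at Lef1, and 18.5% and 23.2% at Satb1. Genome-wide, union sites held 8.54% of all reads in the NA library and 12.6% in the IL-4 library. A larger share of reads in sites in the IL-4 library was thus not particular to these windows.

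In segments of 20 kb the reads outside sites had their highest ratios in one part of the Satb1 window. In the segment from 51950001 to 51970000 the NA library held 314 reads outside sites (13.7 RPM) and the IL-4 library 326 (20.9 RPM), a ratio of 1.53 (1.31 to 1.79). In the segment from 51990001 to 52010000, which holds Satb1-16 and Satb1-17, the values were 184 reads (8.01 RPM) and 221 (14.2 RPM), a ratio of 1.77 (1.45 to 2.17). Sites included, that segment had a ratio of 2.28 (1.97 to 2.64). These were the 2 of the 10 Satb1 segments, and of the 25 segments of all 3 windows, with a ratio outside sites of at least 1.5 and an interval above 1, against 5.65% of 110810 segments of the genome with at least 100 reads. With reads in sites included the same 2 segments passed, against 6.7% of segments of the genome. A count of 2 among 25 segments is near these shares of the genome. Reads just past the edges of a site counted as outside sites, and their part in the ratios was not tested. The segment between them had 1.32 (1.14 to 1.53) and the one after them 1.24 (1.03 to 1.49). In the 5 segments before 51950000 the ratio outside sites ran from 1.03 to 1.26, each with an interval that held 1, and was 1.11 (1.01 to 1.21) over them together. The odds outside sites were 1.23 times as high in the right part of the window as in the left (1.10 to 1.38). The genome's median segment had a ratio outside sites of 0.969.

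At Lef1 the reads outside sites went the other way in the right part. There the ratio outside sites was 0.897 (0.828 to 0.972), and in the left part it was 1.10 (1.02 to 1.18), with odds 0.818 times as high in the right part (0.733 to 0.913). The last 2 segments, from 130920001 to 130960000, had ratios of 0.851 (0.715 to 1.01) and 0.835 (0.70 to 0.993). At Tcf7 all 6 segments had a ratio outside sites between 0.915 and 1.05 with intervals that held 1, and the ratio of the segment from 52110001 to 52130000, 1.49 (1.34 to 1.65) with all reads, was 1.05 (0.894 to 1.23) outside its sites, which include Tcf7-14.

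**Figure D5:**
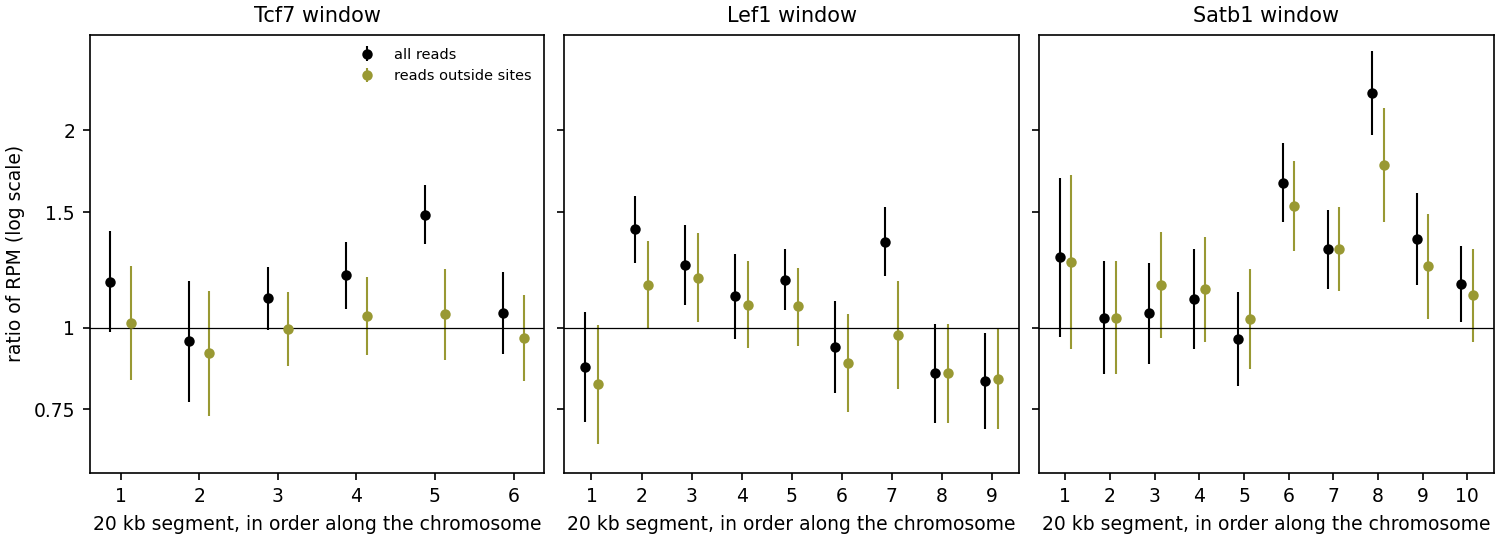
RPM ratio of the libraries (IL-4 library over NA library, log scale) in consecutive 20 kb segments of the Tcf7, Lef1 and Satb1 windows, for all reads (black) and for reads outside sites (olive), with exact 95% intervals that cover counting error. Outside sites the Tcf7 segments stay between 0.915 and 1.05, and the Satb1 segments 6 and 8 stand at 1.53 and 1.77.

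The same loci were also counted in bins of 200 bp drawn without regard to sites. Bins with at least 20 reads over both libraries were compared. There were 150 such bins, of which 31 (20.7%) were higher and 2 (1.33%) lower by the size rule, against 16.8% and 2.17% of 112461 such bins of the genome. At Tcf7 7 of 44 bins were higher, at Lef1 9 of 50 and at Satb1 15 of 56 (26.8%). Of these tested bins 25, 29 and 33 overlapped a site, so the bins are not a separate check on the sites. The median ratio of the bins was 1.48, against 1.34 over all such bins of the genome. The bins thus lay above the genome's median, while the sites, at 1.55 against 1.60, did not. The fullest bin was the same in both libraries at Tcf7, from 52128001 to 52128200 inside Tcf7-14, with 102 reads and 158. At Lef1 it lay in Lef1-16 in the NA library, with 163 reads, and in Lef1-3 and Lef1-16 alike in the IL-4 library, with 171 reads in each. At Satb1 it lay in Satb1-23 in the NA library, with 69 reads, where the IL-4 library had 43, and in Satb1-17 in the IL-4 library, with 69 reads, where the other had 42.

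The 58 sites were narrow in both libraries, 100 to 680 bp wide. Over the 58 sites the median distance between reads of opposite strands was 127 bp in each library, against fragment lengths of 125 and 130 bp. Reads were assigned to a site by centres 63 bp inwards, which by itself draws this distance towards 127 bp. The match with the fragment lengths is therefore no property of the sites. At the 25 sites called in both libraries the summit differed by a median of 20 bp, and at 22 of them by at most 50 bp. The largest shift was 250 bp, at Satb1-20. There the reads of opposite strands lay 137.5 bp apart in the NA library and 3 bp apart in the IL-4 library. At the fullest site, Tcf7-14, 32.8% of positions on either strand held a read in the IL-4 library, and 20.9% in the NA library. Each position and strand holds at most 1 read after removal of duplicates, and the part of that in the ratio was not tested. In GRCm38 the neighbouring protein-coding genes are Skp1 and Vdac1 beside Tcf7, Rpl34 and Hadh beside Lef1, and Tbc1d5 and Kcnh8 beside Satb1. No mm9 annotation was used here, so sites are not assigned to exons, introns or promoters, and a site in a window may lie nearer to a neighbour.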

How the data were processed

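The members and lists were chosen with earlier results of these data known. The authors deposited 1 line per aligned read with position, strand and mapping quality, a score per read that ran from 11 to 42. Bowtie2, CASAVA 1.0 and mm9 are named in the submitters' processing notes without settings, and the file names state a mapping quality filter and removal of duplicates; within each file 0 reads had the position and strand of another. Per the labels' protocols chromatin was sonicated to between 200 and 300 bp and amplified for 17 cycles. The mapping quality entered only as a filter in an alternative.

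All counts were made here, with Python 3.11.15 (pandas 2.3.3, scipy 1.17.1, numpy 2.4.6), from reads on chromosomes 1 to 19, X and Y. Sites were called genome-wide in each library, the deeper one thinned to 15561681 reads: coverage by reads extended to 125 or 130 bp, every 10 bp, against the larger of the genome's and the surrounding 10 kb's Poisson rate, at a Benjamini-Hochberg q under 0.01, gaps up to 100 bp merged, at least 100 bp wide, at least 20% of reads on each strand. This gave 36525 and 55749 peaks and, merged at an overlap of 1 bp, 66026 union sites, in which all reads were counted. Ratios carry exact Clopper-Pearson 95% intervals. They, and the floor of 3 reads, cover counting error only, since PCR copies cannot be told from separate molecules without molecular identifiers. Odds ratios are conditional, with exact intervals. The procedures were tested on simulated data. Named sites were the 5 strongest of each window, up to 3 higher and 3 lower sites per window (those whose interval lay farthest from 1, not those of most extreme ratio), and sites called in 1 library with at least 40 reads over both; others are marked in the text or stand in counts. Segments of 20 kb, splits at the midpoint and odds ratios were added after seeing the data. The planned comparison of proteins was not made. The figures used matplotlib 3.10.9.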

Additional observations from a re-analysis of the deposited data

How the results depend on the processing

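No paired analysis was possible because there is 1 library per condition. Leaving out a library was not possible for the same reason. Scaling to the median of shared sites gave 6 higher and 7 lower sites in place of 16 and 1, 11 higher and 10 lower bins in place of 31 and 2, and turned the ratios of the whole windows to 0.901 at Tcf7, 0.847 at Lef1 and 0.989 at Satb1. In sites alone the window ratios were 1.88, 1.61 and 1.66, and outside sites 1.00, 0.998 and 1.25, which turned the one of Lef1 to just under 1. Top-quality reads gave 3 lower sites and thinning 2. A minimum of 10 reads per bin gave 54 higher and 12 lower bins of 584, a minimum of 40 gave 14 and 0 of 45. Lower bins numbered 0 with bins shifted by 100 bp, 1 with scaling by reads outside sites and 1 with centres 100 bp inwards. A q under 1e-05 left 8 sites at Tcf7 and 9 at Satb1, in place of 17 and 23. Of the 25 named sites, 5 moved beyond their interval with scaling to the median of shared sites, and 0 under the other 6 alternatives, where a ratio could be had. As that scaling multiplies every ratio by 0.748, only sites with narrow intervals could move. The other alternatives use largely the same reads, so the count of 0 is no separate check. Of the 16 higher sites, 5 were higher under the 6 alternatives with an interval of their own and 10 under the 5 other than that scaling. Background subtraction gives no interval, and no ratio for 2 named sites, Lef1-12 and Satb1-2. Depth limits the weaker sites: Lef1-10, with 40 and 28 reads, has an interval of 0.614 to 1.72.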
